A study of Mus musculus with 6 samples.

Results

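The 10 genes described here encode the proteins that carry glucose into a cell and lactate out of it, together with those that set fructose 2,6-bisphosphate or restrain glucose uptake. They are the glucose transporter genes Slc2a1, Slc2a3 and Slc2a6, the lactate transporter genes Slc16a1 and Slc16a3, their partner Bsg, the uptake inhibitor Txnip, and Pfkfb3, Pfkfb4 and Tigar. They were chosen by name, through their NCBI gene numbers, from the 24885 rows of the count table, and all 10 had a row. The del libraries (n = 3) came from lymphoma cells of an Eµ-Myc mouse that carried Cre-ERT2 and was fl/fl for miR-17~92. They were given 250 nM 4-hydroxytamoxifen (4-OHT) for 4 days and then subcloned, and their genotype is del17-92; how many clones were used is not stated. The fl libraries (n = 3) came from cells of the same source labelled floxed, for which no exposure to 4-OHT is described. Eµ-Myc is a Myc transgene driven in the B lineage, Cre-ERT2 is a recombinase that 4-OHT switches on, and miR-17~92 is a cluster of microRNAs that Myc is known to induce. Both groups carried the transgene and the recombinase and came from cells with floxed alleles, and both were grown for 48 hours on irradiated Ink4a-null mouse fibroblasts in medium with 10% serum. RNA was read as 3′ tags, and the comparison asks which transcripts of a tumour cell's metabolism differ after the cluster is deleted.

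Glucose enters cells down its gradient through transporters of the SLC2 family, and lactate leaves with a proton through monocarboxylate transporters of the SLC16 family. Those encoded by Slc16a1 and Slc16a3 need the glycoprotein basigin to reach the cell surface. TXNIP, an alpha-arrestin, removes SLC2A1 from the surface and is itself induced when glucose phosphates accumulate. Fructose 2,6-bisphosphate is the strongest allosteric activator of phosphofructokinase. PFKFB enzymes make and break it, and TIGAR breaks it. Growing lymphoma cells are known for high glucose uptake and lactate release.

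The microRNAs of the cluster act by pairing of their seed, bases 2 to 8, with sites in the 3′ untranslated region (UTR) of a transcript. The sequences of the seed families with a site in a transcript that rose in del are shown here from RefSeq, GRCm38.p6, with the seed in capitals. The miR-17 family seed is shared by miR-17-5p and miR-20a-5p, and the miR-19 seed by miR-19a-3p and miR-19b-3p.
miR-17-5p: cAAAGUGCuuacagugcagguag
miR-20a-5p: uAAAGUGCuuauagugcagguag
miR-19a-3p: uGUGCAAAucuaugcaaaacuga
miR-19b-3p: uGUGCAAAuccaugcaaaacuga

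In the longest annotated 3′ UTR of each of the 10 genes (GENCODE, GRCm38), a match to bases 2 to 8 of any of the 4 seed families of the cluster (miR-17/20a, miR-18a, miR-19 and miR-92a) was found in 3 genes, Txnip, Pfkfb3 and Slc16a3, with 5 matches in all. Of 9832 tested genes with an annotated UTR, 33.9% held a match to at least 1 of the 4 families, so a match in 3 of 10 genes is near the background. Txnip held a pair of miR-17/20a matches, at bases 712 to 718 and 1130 to 1136 of a UTR of 1354 bases. Pfkfb3 held a miR-17/20a match at bases 799 to 805 of 3063, which overlaps a miR-19 match at bases 796 to 802. The match in Slc16a3 was to miR-18a. The matches in Txnip and Pfkfb3 are shown because both genes rose in del, with the 7 matching bases in capitals.
Txnip, first miR-17/20a match: aggtgatgttcttaGCACTTTagcttgt
Txnip, second miR-17/20a match: ctcactaagccttaGCACTTTgtcctgt
Pfkfb3, miR-17/20a match: ttggctgtttgtttGCACTTTtccttct
Pfkfb3, miR-19 match: ttgttggctgtttgTTTGCACttttcct

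None of the 5 genes that fell in del (Slc2a1, Slc2a3, Slc16a1, Bsg and Tigar) held a match, and Slc2a6, which rose most, held none either, as was so for most tested genes. Among the same 9832 genes, 14.7% held a miR-17/20a match and 13.5% a miR-19 match. Of the 1450 genes with a miR-17/20a match, 692 (47.7%) were higher and 306 (21.1%) lower in del, with a median log2 fold change of 0.42. With 2 or more such matches, as in Txnip, there were 231 genes, with a median UTR of 3892 bases. Of these 136 (58.9%) were higher and 30 (13.0%) lower. Among genes with a miR-18a, miR-19 or miR-92a match, 41.9%, 45.5% and 50.6% were higher and 24.3%, 21.1% and 18.8% lower. The shift was thus not particular to miR-17/20a. Over all 9832 genes, 33.0% were higher and 32.3% lower, with a median of 0.01. UTR length moved with both matches and fold change. Its median was 2544.5 bases among the genes with a miR-17/20a match and 1195 bases among all. Spearman's rho between UTR length and fold change was 0.269 across genes, which are not independent replicates. The part of UTR length in these counts was not tested. A match is a description of the annotated sequence, and which 3′ end the cells used was not analysed here.

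The del libraries held 2121796 to 3738720 counts and the fl libraries 6554423 to 9580630, so depth and group go together. Mir17hg, which hosts the cluster, was at 167, 152 and 206 CPM (scaled counts per 1000000) in del and at 252, 263 and 262 CPM in fl, with a log2 fold change of -0.56 ± 0.15 (adjusted p = 0.00844). Where its 3′ tags lie relative to the deleted part was not analysed here, so its level is no check of the deletion. The groups also differed in cell type markers. The 15 B cell markers summed to 2799 to 2952 CPM in del and 190 to 238 CPM in fl, and in fl the B cell gene Ebf1 was at most at 0.56 CPM. The 12 myeloid markers summed to 3043 to 3859 CPM in del and 448 to 491 CPM in fl, with Mpo and Csf3r at 0 throughout. All 13 tested B cell markers and 7 of 9 tested myeloid markers were higher in del, while the myeloid markers Lgals3 (4.55 CPM in del and 20.4 CPM in fl) and Cd14 (1.95 CPM in del and 3.93 CPM in fl) were lower, and the low B cell markers of the fl libraries go against their lymphoma label. The 8 epithelial markers summed to 1.42 to 1.84 CPM in del and 428 to 455 CPM in fl, with Cdh1 and Cldn7 at 0. Fibroblast markers, of which the feeder layer is a possible source, were 18 in number and summed to 19.5 to 42.2 CPM in del and 2.52 to 10.996 CPM in fl, with Lum at 0. In fl the epithelial sum came mostly from Krt18 (214 CPM), Epcam (170 CPM) and Tspan8 (49.1 CPM). Krt8 was at 4.24 CPM in fl, and Cldn4 and Krt19 had 14 and 1 counts over the fl group. Fibroblast markers were low in both groups, though higher in del. The 12 T and NK cell markers summed to 99.95 to 121 CPM in del and 38.6 to 43.0 CPM in fl, with Cd3e, Cd8a, Nkg7 and Ncr1 at 0. That sum was carried by Cd2 (105 CPM in del and 13.1 CPM in fl), while the other 2 tested markers of the list were lower in del and the median log2 fold change of the 3 was -2.84. The 8 erythroid markers stayed at or below 2.37 CPM in every library, with 6 of them at 0. Deletion, 4-OHT treatment, subcloning and these marker differences cannot be told apart in this design. Separate cultures are not stated for the 3 libraries of each group, so p-values measure the spread between these libraries, which may be technical.

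Of the 10 genes 5 were lower and 3 higher in del. Slc2a1, Bsg, Slc16a1, Slc2a3 and Tigar fell, by 4.13-fold for Slc2a1 down to 1.68-fold for Tigar. Slc2a6 rose 8.78-fold, and Pfkfb3 and Txnip rose 1.69-fold and 1.59-fold. Pfkfb4 was not called and Slc16a3 had no count. Thus 8 of the 9 tested genes passed the threshold, 3 higher and 5 lower, by the quasi-likelihood test of edgeR, with p-values adjusted over all genes by Benjamini-Hochberg. Of all 10260 genes tested 65.1% passed, 32.5% higher and 32.6% lower, so 8 of 9 is to be read against a high background. The del and fl libraries did not overlap for the same 8 genes, against 69.9% of all genes. The median log2 fold change of the 9 genes was -0.75, against 0.00 for all genes tested, whose interquartile range ran from -0.70 to 0.84. In bulk RNA, fewer cells of a type and less RNA per cell cannot be told apart.

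**Figure D1:**
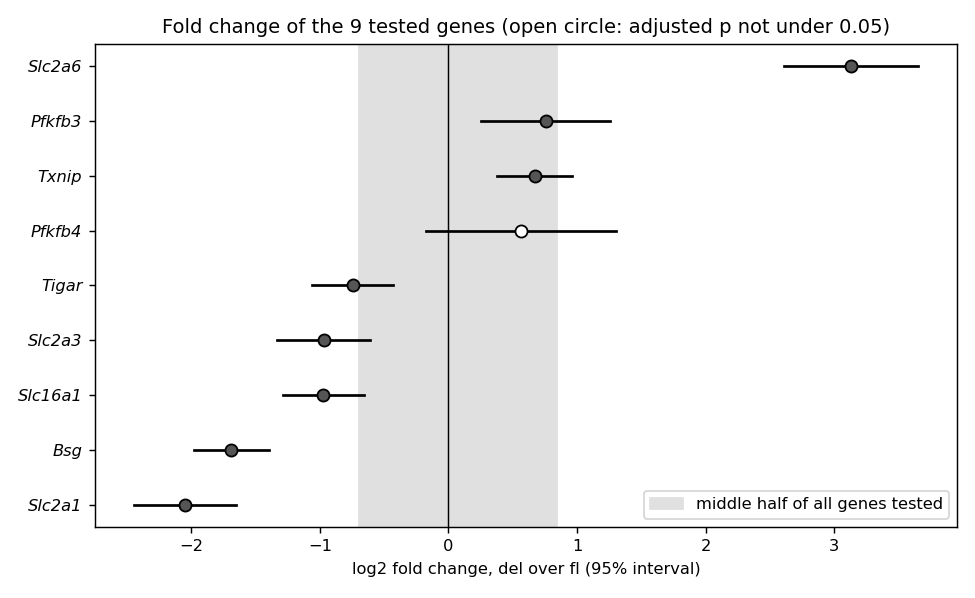
Log2 fold change of del over fl for the 9 tested genes with 95% intervals from the fit; filled circles passed an adjusted p of 0.05, and the grey band holds the interquartile range of all 10260 genes tested. The points of Slc2a1, Bsg, Slc16a1, Slc2a3 and Tigar lie below the band and that of Slc2a6, at 3.13, above it, while the intervals of Slc2a3, Slc16a1 and Tigar reach into it and that of Pfkfb4 spans 0.

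Slc2a1, on chromosome 4 from 119108745 to 119137330 (GRCm38), encodes GLUT1, the basal glucose transporter of blood cells and many tumours. It was at 54.3, 67.3 and 49.2 CPM in the del libraries and at 195, 255 and 252 CPM in the fl libraries. Every del library lay below every fl library, by a wide gap. The log2 fold change was -2.05 ± 0.18 (SE; 95% interval -2.44 to -1.65, adjusted p = 1.33e-05), and 4.58% of tested genes had a lower one. The fibroblast marker sum was highest in del replicate 2, the shallowest library, which also held the highest Slc2a1 of its group. Without that library the log2 fold change was -2.18. In fl the fibroblast sum was highest in replicate 3 and Slc2a1 in replicate 2. The part of fibroblast RNA in the level of Slc2a1 was not tested.

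Slc2a3, on chromosome 6 from 122727809 to 122802363, encodes GLUT3, a high-affinity transporter prominent in neurons and activated leukocytes. Its level was 15.3, 12.8 and 14.6 CPM in del and 25.6, 26.7 and 32.4 CPM in fl. The groups did not overlap and del was 1.96-fold lower (log2 fold change -0.97 ± 0.16, adjusted p = 6.07e-04).

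Slc2a6, on chromosome 2 from 27021363 to 27028000, encodes GLUT6, a transporter found on lysosomes and known from spleen and activated macrophages. It stood at 28.4, 19.9 and 26.0 CPM in del and at 2.52, 3.69 and 2.199 CPM in fl, from 42 to 108 counts per del library and 15 to 33 per fl library. It was low in all fl libraries and high in all del libraries, although those were the shallower ones. The log2 fold change was 3.13 ± 0.23 (95% interval 2.61 to 3.66, adjusted p = 5.37e-06), higher than that of 95.9% of tested genes. All 13 tested B cell markers were also higher in del. Of the 9 tested myeloid markers 7 were higher and 2, Lgals3 and Cd14, lower. The 12 listed myeloid markers summed to 3043 to 3859 CPM in del and 448 to 491 CPM in fl. Fcer1g alone was at 599 CPM in del and 391 CPM in fl. The part of the cells behind these markers in the rise was not tested.

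**Figure D2:**
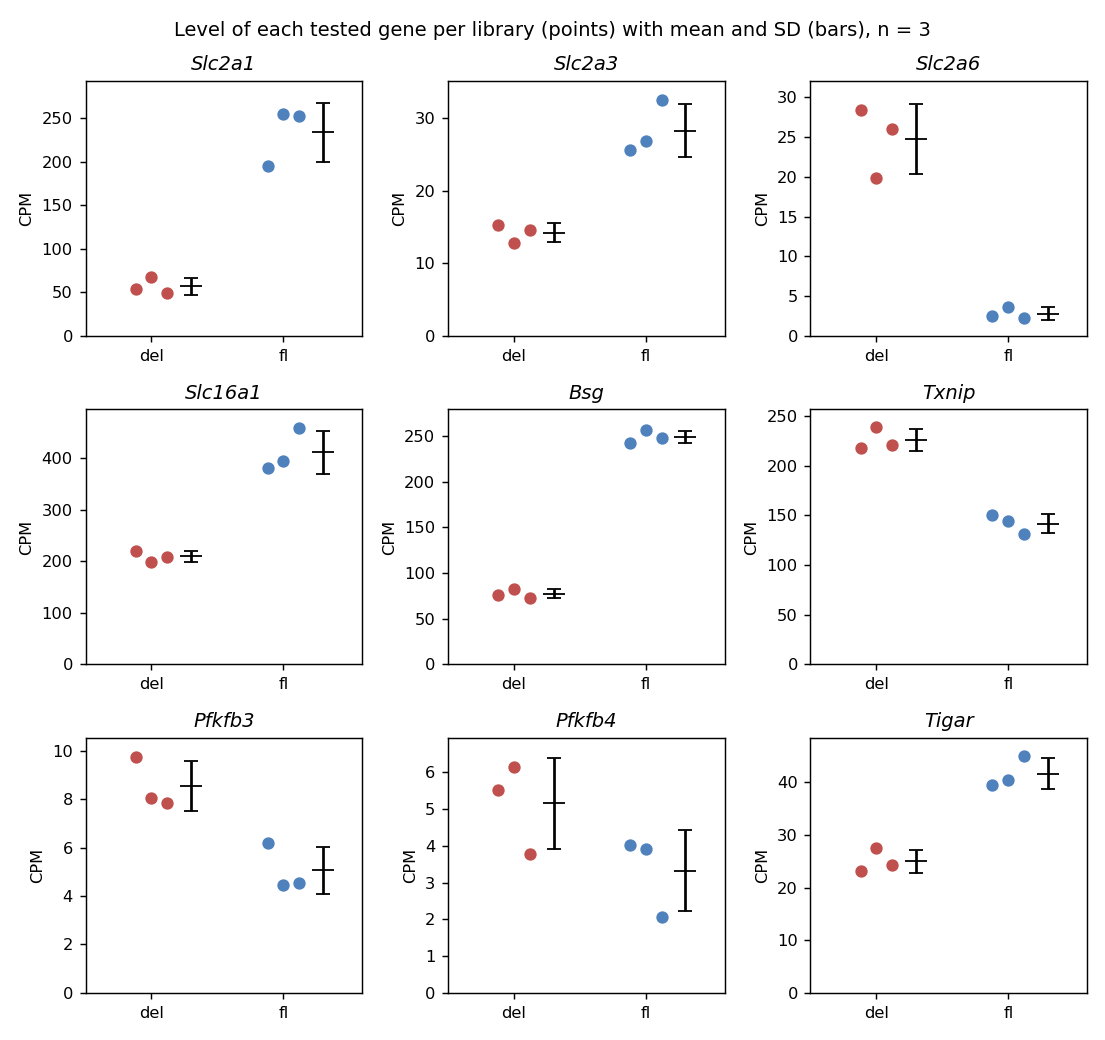
Level in CPM (vertical axes, from 0) of the 9 tested genes in each library, del on the left and fl on the right, with points for libraries and bars for the mean and SD of 3. Only for Pfkfb4 do the points of the groups overlap, and Slc16a3, with no count, is not drawn.

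The summed level of the 3 glucose transporter genes was 98.0, 99.95 and 89.7 CPM in del and 223, 285 and 287 CPM in fl. The mean sums were 95.9 ± 5.41 CPM in del and 265 ± 36.3 CPM in fl (SD, n = 3 each; two-sided exact permutation p = 0.1, the smallest that 3 against 3 allows). Slc2a6 made up 29.0% (95% Wilson interval 24.7 to 33.8), 19.9% (15.1 to 25.8) and 28.9% (24.3 to 34.01) of these counts in the del libraries. Its share was 1.13% (0.748 to 1.71), 1.30% (0.924 to 1.81) and 0.767% (0.465 to 1.26) in the fl libraries. These intervals cover counting error only, and the shares, being of 3′ tags not divided by length, serve to compare libraries and not genes.

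Slc16a1, on chromosome 3 from 104638664 to 104658462, encodes MCT1, which carries lactate and pyruvate in either direction and is a known target of Myc. It was at 220, 199 and 209 CPM in del and at 381, 395 and 458 CPM in fl. Every del library was below every fl library, with a spread of 5.02% of the mean in del and 9.98% in fl. The log2 fold change was -0.97 ± 0.14 (95% interval -1.29 to -0.66, adjusted p = 2.59e-04), which is 1.96-fold lower in del and close to that of Slc2a3.

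Slc16a3, on chromosome 11 from 120948484 to 120959000, encodes MCT4, the exporter of strongly glycolytic cells. It had 0 counts in each of the 6 libraries. A count of 0 allows up to 3 counts, or 0.312 CPM over the del group and 0.123 CPM over the fl group. The gene's end in RefSeq lies 1868 bases before its end in GENCODE, and the sources used here do not give whether 3′ tags past the RefSeq end were counted. The 0 therefore does not show that the transcript was absent, and no test or ratio with Slc16a1 was possible.

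Bsg, on chromosome 10 from 79704358 to 79711979, encodes basigin, the chaperone of MCT1 and MCT4. It was at 76.1, 82.4 and 73.0 CPM in del and at 243, 256 and 247 CPM in fl. Replicates lay close together in both groups, and the levels of the groups were far apart. On the log2 scale the change was -1.69 ± 0.13 (95% interval -1.98 to -1.40, adjusted p = 6.97e-06), a 3.23-fold lower level in del.

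Txnip, on chromosome 3 from 96557957 to 96561857, moved against the transporter it restrains. It was at 218, 239 and 221 CPM in del and at 149.98, 144 and 131 CPM in fl. Each del library was above each fl library. On the log2 scale the change was 0.67 ± 0.13 (95% interval 0.38 to 0.96, adjusted p = 0.00143), and 71.3% of tested genes had a lower one, so the size of this rise is ordinary for these data. The antisense gene Gm15441, which overlaps Txnip, had 27 counts in all against 5637 for Txnip.

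Of the enzymes of fructose 2,6-bisphosphate, Pfkfb3 and Tigar moved in opposite directions. Pfkfb3, on chromosome 2 from 11471430 to 11554071, encodes the isoenzyme in which the kinase activity far outweighs the phosphatase. It was at 9.74, 8.05 and 7.84 CPM in del and at 6.19, 4.48 and 4.55 CPM in fl, from 17 to 54 counts per library. The groups did not overlap, but the gap between them was small. Its log2 fold change was 0.76 ± 0.22 (95% interval 0.25 to 1.26, adjusted p = 0.0146). Without del replicate 1, its highest library, the call was lost (log2 fold change 0.63, adjusted p = 0.071).

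Pfkfb4, on chromosome 9 from 108988272 to 109032236, encodes the isoenzyme first known from testis, which is induced by low oxygen. It was at 5.53, 6.16 and 3.78 CPM in del and at 4.01, 3.92 and 2.05 CPM in fl. The lowest del library lay among the fl libraries. The log2 fold change of 0.57 ± 0.33 missed the threshold (95% interval -0.17 to 1.30, adjusted p = 0.156), and the interval allows both no change and a 2.47-fold rise. It rests on 13 to 35 counts per library.

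Tigar, on chromosome 6 from 127085116 to 127109552, encodes a fructose 2,6-bisphosphatase that p53 induces in human cells. It was at 23.2, 27.5 and 24.3 CPM in del and at 39.6, 40.4 and 45.01 CPM in fl. Both groups were tight and did not overlap. Its log2 fold change was -0.75 ± 0.14 (95% interval -1.06 to -0.43, adjusted p = 0.0012), a 1.68-fold lower level in del. Trp53, the gene of p53, was at 191 ± 29.2 CPM in del and 126 ± 1.10 CPM in fl (SD, n = 3 each; log2 fold change 0.60 ± 0.15, adjusted p = 0.00563).

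Ratios of 2 genes within a library do not move with the scaling of that library. Slc2a1 to Slc2a3 had a mean log2 count ratio of 1.98 ± 0.34 in del and 3.04 ± 0.18 in fl (SD, n = 3 each), 2.09-fold lower in del. The groups did not overlap, so that Slc2a1 fell by more than Slc2a3 in these libraries. Pfkfb3 to Pfkfb4 had a mean of 0.73 ± 0.33 in del and 0.64 ± 0.46 in fl, and its values overlapped (two-sided exact permutation p = 0.8).

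Another 3 ratios were chosen after the values were seen. Slc2a6 to Slc2a1 stood at -0.93, -1.75 and -0.92 in del and at -6.24, -6.09 and -6.79 in fl, a 36.2-fold higher ratio in del. Txnip to Slc2a1 was at 2.00, 1.82 and 2.16 in del and at -0.38, -0.82 and -0.95 in fl, 6.56-fold higher in del. Pfkfb3 to Tigar was at -1.24, -1.74 and -1.62 in del and at -2.66, -3.16 and -3.29 in fl, 2.84-fold higher in del. None of these 3 ratios overlapped between the groups. Each set a gene higher in every del library over one lower in every del library. Their lack of overlap and their p were thus fixed in advance and are no support. For each ratio without overlap the two-sided exact permutation p was 0.1, the smallest possible, and 0.117 adjusted over the 5 ratios and the pair of glucose transporter summaries.

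**Figure D3:**
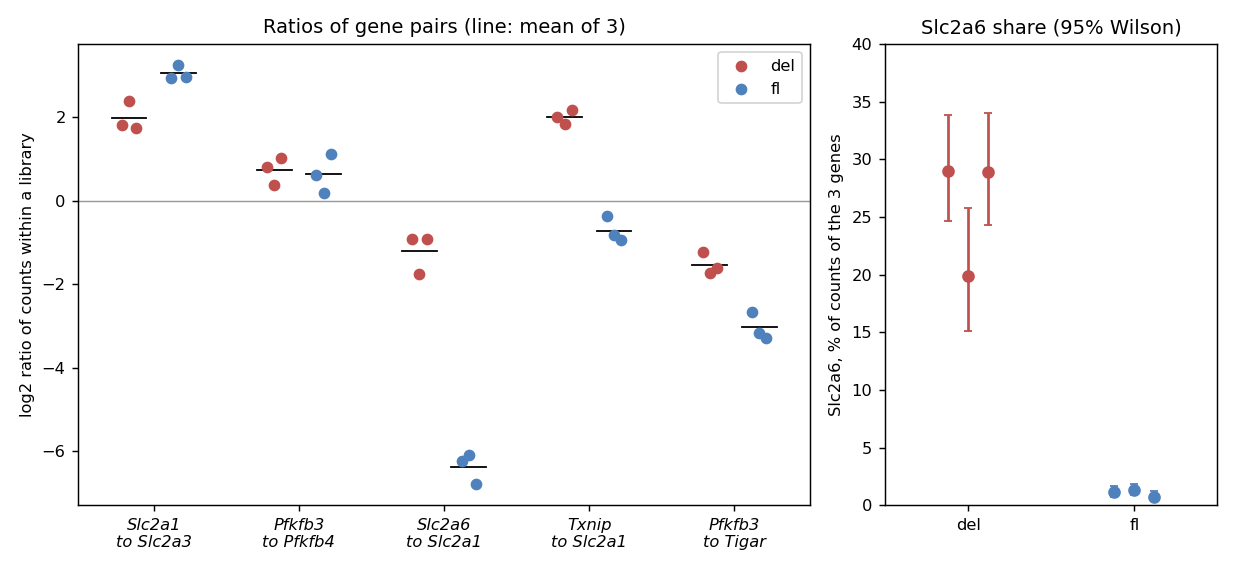
Left, log2 ratio of the counts of 5 gene pairs within each library, with del left of fl in each pair and a line at the mean of 3; right, percent of the counts of Slc2a1, Slc2a3 and Slc2a6 that came from Slc2a6, with 95% Wilson intervals. Slc2a6 to Slc2a1 separates the groups most, and Pfkfb3 to Pfkfb4 does not separate them.

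Other genes of the pathway were read from lists, each set against the 65.1% of all genes tested that were called (32.5% higher, 32.6% lower) and their median of 0.00. Of 12 other sugar transporter genes 3 could be tested, and 6 had no count. Slc2a9, a urate and fructose transporter gene, was called higher at 13.6 ± 2.13 CPM in del and 8.90 ± 2.02 CPM in fl (SD, n = 3 each; log2 fold change 0.62 ± 0.22, adjusted p = 0.0302). Slc2a8 (-0.25 ± 0.32) and the inositol transporter gene Slc5a3 (-0.37 ± 0.22) were not called. The call of Slc2a9 was lost without del replicate 1 (0.46, adjusted p = 0.143), fl replicate 2 (0.57, 0.0767) or fl replicate 3 (0.50, 0.0808), and with upper-quartile factors (0.49, 0.0604).

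Of 18 further monocarboxylate transporter genes and partners, including the mitochondrial pyruvate carrier, 7 could be tested, of which 4 fell and 1 was called higher, with a median log2 fold change of -0.55. These 5 calls among 7 are near the background of 65.1%. Slc16a10, an aromatic amino acid transporter gene, was at 17.3 ± 2.49 CPM in del and 68.5 ± 14.6 CPM in fl (SD, n = 3 each; log2 fold change -1.97 ± 0.20). Mpc1, a subunit of the pyruvate carrier, was at 60.1 ± 7.46 CPM in del and 173 ± 7.02 CPM in fl (log2 fold change -1.52 ± 0.14), and its partner Mpc2 was at -0.55 ± 0.13 on the log2 scale. The remaining 2 calls, named after their values were seen, were the partners embigin and neuroplastin. Emb fell (log2 fold change -0.56 ± 0.14), and Nptn was at 69.6 ± 10.6 CPM in del and 51.0 ± 5.90 CPM in fl (0.45 ± 0.16, adjusted p = 0.031). The call of Nptn was lost under 6 alternatives, among them without del replicate 1 (0.32, adjusted p = 0.123), del replicate 2 (0.46, 0.0563) or fl replicate 1 (0.35, 0.0999), with the replicate number as a block (0.45, 0.0525), with no filter (0.40, 0.0501) and with upper-quartile factors (0.32, 0.117).

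Of 7 other genes of fructose phosphate interconversion 6 could be tested, of which 4 fell and none rose, with a median of -1.08, also with Fbp2 at its bound. A share of 4 in 6 called is near the background of 65.1%. Fbp2, a muscle fructose 1,6-bisphosphatase gene, had 0 counts over the del group and 195 over the fl group, at least 25.5-fold lower in del with the floor set at 3 counts for the whole group. The phosphofructokinase genes Pfkp (-1.26 ± 0.14) and Pfkl (-0.90 ± 0.16) fell on the log2 scale. Of the rest of the PFKFB family, Pfkfb1 fell to 0.953 ± 0.772 CPM in del, against 4.20 ± 0.245 CPM in fl (SD, n = 3 each; log2 fold change -2.00 ± 0.42, adjusted p = 0.00229). Del replicate 1, at 1.84 CPM, was above the other del libraries at 0.474 and 0.541 CPM, and without it the log2 fold change was -2.98. Pfkfb2 was at 5.61 ± 0.479 CPM in del and 3.96 ± 1.58 CPM in fl and was not called (adjusted p = 0.243).

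Of 8 genes of the alpha-arrestin family and the MLX glucose sensor, which includes the known activators of Txnip, 5 could be tested, of which 2 rose and 1 fell, with a median of 0.05. The 3 calls among 5 are near the background of 65.1% as well. Mlxip, which encodes MondoA, rose (0.83 ± 0.15 on the log2 scale, adjusted p = 8.57e-04), as did the Txnip relative Arrdc3 (0.69 ± 0.18, adjusted p = 0.00821). Mlx, the dimer partner of MondoA, fell (-0.73 ± 0.14, adjusted p = 0.00141). Arrdc4, the other glucose-responsive arrestin gene, was too low to test.

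Of 21 glycolysis enzyme genes 17 could be tested, of which 13 fell and 1 rose, with a median of -1.26. Pfkp, Pfkl and Pfkm are in this list and in that of fructose phosphate interconversion, so the counts of these lists are not separate. Of all genes tested 32.6% fell. Aldoc (-4.38 ± 0.24), Tpi1 (-2.17 ± 0.15) and Ldha (-1.88 ± 0.13) had the smallest adjusted p. The level of Eno1, whose reads near-identical copies could share, is uncertain. The 1 gene that rose was Hk3, the hexokinase gene of myeloid cells, named after its values were seen, with 78 counts over the del group and 3 over the fl group (ratio 66.2, exact 95% counting interval 21.8 to 328). Of 13 regulators 11 could be tested, of which 6 fell and 1, Trp53, rose, with a median of -0.65, and 7 calls among 11 are near the background of 65.1%. Egln3, a prolyl hydroxylase gene of the oxygen response, had the largest fall of them (-4.49 ± 0.20), Egln1 was at -0.67 ± 0.13 and Akt2, a kinase gene that promotes transporter traffic, at -0.72 ± 0.13. Hif1a was at 68.4 ± 10.5 CPM in del and 56.8 ± 4.43 CPM in fl (SD, n = 3 each), and Myc at 423 ± 28.2 CPM in del and 468 ± 59.9 CPM in fl. Neither passed the threshold (adjusted p = 0.148 for Hif1a and 0.399 for Myc).

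**Figure D4:**
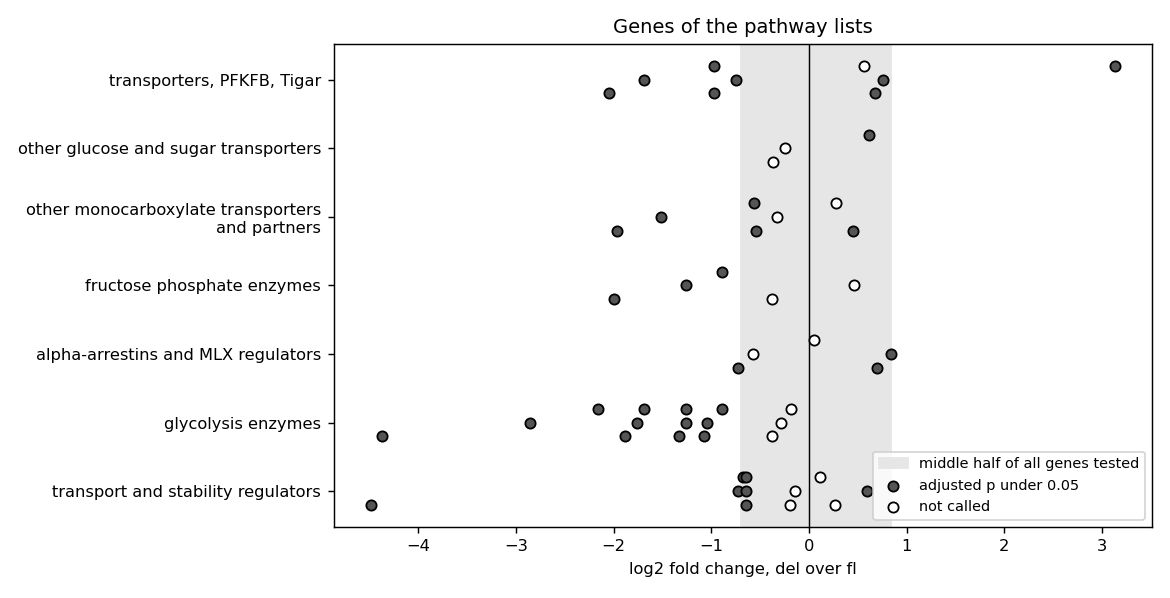
Log2 fold change of del over fl (horizontal axis) for the tested genes of each pathway list, with filled circles for an adjusted p under 0.05, open circles for genes not called and the grey band for the interquartile range of all genes tested; rows are spread only to separate points. Genes with at most 3 counts in a group (Fbp2 and Hk3 among them) are not drawn, and most glycolysis enzymes lie left of the band.

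Among 6048 genes with a mean of at least 20 CPM, those whose centred log2 CPM profile over the 6 libraries lay nearest were sought for the 3 genes with the smallest adjusted p. For Slc2a6 they were Bhlhe41, at a Euclidean distance of 0.267 on the log2 scale, and Vwa5a, at 0.273. Aprt (0.215) and Itgb7 (0.227) were nearest to Slc2a1. Mt1 (0.0952) and Mrpl11 (0.140) were nearest to Bsg. All 6 profiles are set mainly by the difference between the groups.

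The RefSeq promoters (GRCm38.p6, 250 bases before to 50 after an annotated start) of Slc2a1, Slc16a1 and Pfkfb3 are shown. These are the called genes with a listed window that held ACGTG or CACGTG, given in capitals. The display thus follows the motif and not the fold change. CACGTG is the canonical Myc/Max E-box, and ACGTG, which lies within it, is the core of the hypoxia response element. Both strands were searched.
Slc2a1, chr4:119108495-119108794, plus strand: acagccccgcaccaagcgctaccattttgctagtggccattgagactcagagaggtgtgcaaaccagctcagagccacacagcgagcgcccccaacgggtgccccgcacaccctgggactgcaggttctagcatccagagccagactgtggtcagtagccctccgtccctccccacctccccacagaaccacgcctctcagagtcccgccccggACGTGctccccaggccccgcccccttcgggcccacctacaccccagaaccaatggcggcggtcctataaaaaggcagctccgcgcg
Slc16a1, chr3:104638414-104638713, plus strand: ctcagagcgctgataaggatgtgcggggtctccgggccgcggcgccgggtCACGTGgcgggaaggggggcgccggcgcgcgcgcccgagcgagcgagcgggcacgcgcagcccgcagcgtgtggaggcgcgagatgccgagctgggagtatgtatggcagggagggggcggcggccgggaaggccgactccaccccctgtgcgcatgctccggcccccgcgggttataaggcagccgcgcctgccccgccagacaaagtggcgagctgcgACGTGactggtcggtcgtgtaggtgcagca
Pfkfb3, chr2:11502041-11502340, minus strand, one of a pair listed: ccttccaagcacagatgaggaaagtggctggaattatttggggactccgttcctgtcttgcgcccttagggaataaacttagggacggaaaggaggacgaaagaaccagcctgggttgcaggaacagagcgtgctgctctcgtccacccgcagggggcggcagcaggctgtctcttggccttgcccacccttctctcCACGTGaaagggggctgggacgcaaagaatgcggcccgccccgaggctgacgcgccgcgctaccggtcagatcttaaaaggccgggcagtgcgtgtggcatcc

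A promoter was listed for 8 of the 10 genes, all but Slc2a3 and Bsg. ACGTG was found for 4 of the 8, in Slc2a1, Slc16a1, Slc16a3 and Pfkfb3, and CACGTG for 2 of them, Slc16a1 and Pfkfb3. The Pfkfb3 window shown lies inside the gene. Its other listed window, chr2:11553880-11554179, held ACGTG and no CACGTG. The windows of Slc2a6, Txnip, Pfkfb4 and Tigar held neither. Of 10585 promoters of tested genes 26.5% held ACGTG and 10.5% CACGTG. The motifs were thus found both in genes that fell and in 1 that rose.

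**Figure D5:**
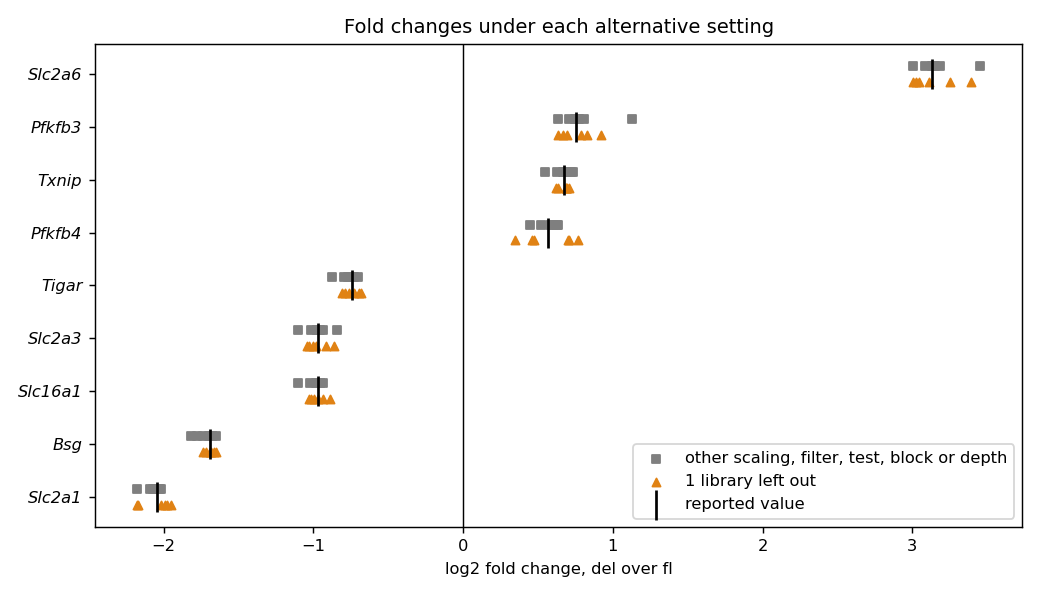
Log2 fold change of del over fl for the 9 tested genes as reported (bars), under other scalings, filters, tests, the replicate block or thinned depth (squares) and with 1 library left out (triangles). No gene changes direction, and Slc2a6 stays between 3.01 and 3.45.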

How the data were processed

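The authors deposited one table of raw read counts per gene for 6 libraries. Per the labels' protocols, barcoded oligo-dT primed, strand-specific 3′ libraries were pooled and amplified. STAR, HTSeq and mm10 are named in the submitters' processing notes, and the sources used here do not give versions, settings or annotation. Of 24885 rows 24052 carry an NCBI gene number, of which 23969 matched the RefSeq table of GRCm38, the assembly of mm10. All 159 listed symbols had a row.

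Groups were compared with edgeR 4.0.16 in R 4.3.3: filterByExpr by group, TMM scaling, the robust quasi-likelihood F test with group as the only term, and Benjamini-Hochberg adjustment over all 10260 genes tested, threshold 0.05. CPM use TMM-scaled library sizes. Standard errors were derived from F. Ratios use counts plus 0.5. In simulated data with 195 of 10098 genes changed, the test recovered 6.35% of 1.5-fold, 57.6% of 2-fold and 95.45% of 4-fold changes. Of its calls 6.25% were false. Far fewer genes were changed there than were called in these libraries, so these rates do not carry over to this comparison. Replicate pairs differed beyond sampling noise (chi-square per degree of freedom 7.35 to 30.5), so all 6 were kept. Same-numbered libraries did not deviate together (correlations -0.04 to 0.08), so numbers were not taken as pairs.

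The genes and lists were chosen with earlier results of these data known. Named by rule were the 10 genes, up to 3 genes per list by adjusted p, the nearest profiles and Mir17hg. Annotated loci overlap Slc2a1, Slc2a3, Slc16a1 and Pfkfb3 on the same strand, and the sources used here do not give how shared reads were counted. Protein sequences were not used here. Alternatives were other scalings (DESeq2 1.42.0 size factors, upper quartile, totals), the DESeq2 test, other filters, the replicate block, thinning to 2121796 counts and leaving out each library. Some withheld items are not reported here.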

Additional observations from a re-analysis of the deposited data

How the results depend on the processing

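Under 14 alternatives the 9 tested genes gave 123 fold changes, and 122 kept their direction and their side of the threshold. The exception was Pfkfb3 without del replicate 1 (0.63, adjusted p = 0.071). Between 7 and 8 of the 10 genes were called under every alternative, and between 5488 and 7286 genes in all. Pfkfb3 and Pfkfb4 were left out by the filter of 10 CPM in 3 libraries, and Pfkfb4 in thinned libraries. Upper-quartile factors moved the median of all genes to -0.13, and on that scale Slc2a1 was at -2.18 and Txnip at 0.55. With the replicate number as a block 8 of the 10 genes were called, as without it. The ratio of Slc2a1 to Slc2a3 (del minus fl) was -1.07, a mean that a block cannot change. Its p was then 0.25 by an exact test over the signs of the same-number differences. That is the smallest p such a test allows with 3 differences. The ratio of Pfkfb3 to Pfkfb4 (del minus fl 0.09) changed sign without del replicate 3 (-0.05) and without fl replicate 2 (-0.13), ranging from -0.13 to 0.33 over libraries left out, and that of Slc2a1 to Slc2a3 ranged from -1.26 to -0.95. Slc2a8, not called, changed sign without del replicate 1 (0.10; range -0.49 to 0.10 over libraries left out). The planned ratio of Slc16a1 to Slc16a3 was not run, as Slc16a3 had no count. Counts of 13 to 54 per library limit what can be said of Pfkfb3 and Pfkfb4.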
